A study of Mus musculus with 24 samples.

Results

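The 10 genes described here encode the 4 inhibitor of DNA binding (ID) proteins (Id1, Id2, Id3 and Id4), the 2 inhibitory SMADs (Smad6 and Smad7), 3 ligands of the TGF-beta superfamily (Bmp4, Tgfb2 and Tgfb3) and a secreted BMP antagonist (Grem1). They were taken by name from the table of 55487 genes, and all 10 passed the filter on low counts. The rule that picked them uses names alone, but it was set with earlier results of these data known. They were measured by poly(A) RNA sequencing in mouse embryonic fibroblasts (MEFs), connective tissue cells grown from mouse embryos. The 6 groups of 4 libraries were WT cells with DMSO (the solvent control), WT with MK-8722 (labelled MK8722, a small-molecule activator of AMP-activated protein kinase, AMPK), WT with torin1 (labelled Torin-1, an inhibitor of the kinase MTOR), and AMPK KO cells with the same 3 agents. According to the methods of the study, AMPK KO cells lack Prkaa1 and Prkaa2, the genes of both catalytic AMPK subunits, and the MEFs of both genotypes came from 1 other laboratory. The number of embryos or clones behind each genotype is not given in the sources used here. Each group held 1 library of each of 4 passage numbers, 12 to 15 for WT cells and 16 to 19 for AMPK KO cells, so that passage range and genotype cannot be told apart. The labels do not say whether the 4 libraries of a group came from separate cultures, and p-values measure only the spread between these libraries.

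BMPs and TGF-betas bind pairs of serine/threonine kinase receptors, which phosphorylate SMAD proteins that then enter the nucleus with SMAD4. The Id genes are classical targets of the BMP branch, and ID proteins lack a DNA-binding region, pair with basic helix-loop-helix (bHLH) factors and keep them off DNA. SMAD6 and SMAD7 are induced by the pathway and act back on its receptors and SMADs, while gremlin 1, the product of Grem1, holds BMPs such as BMP4 outside the cell. In fibroblasts these signals are known for their part in matrix production, contractile gene expression and the choice between growth and differentiation.

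The sequence just before the start of a gene is where SMADs and other factors can bind, and 3 such windows are shown. Their genes were picked for the features named next. Id2 and Atoh8, which encodes a bHLH protein, moved alike across the libraries, and Id3 was the most abundant of the 10 genes. Each window runs from 250 bases before to 50 bases after the start of transcription in RefSeq (mouse build GRCm38.p6) and is written 5′ to 3′ along the gene's own strand. For Id2 and Id3 the gene spans of the GENCODE annotation, given below, begin further upstream than the RefSeq start. Their windows therefore lie inside those spans and not before them. Capitals mark matches, on either strand, to the BMP-SMAD element GGCGCC, the SMAD box GTCTG with its reverse complement CAGAC, the E-box CACGTG and the cyclic AMP element TGACGTCA.
Id2 (minus strand, chr12:25096043-25096342): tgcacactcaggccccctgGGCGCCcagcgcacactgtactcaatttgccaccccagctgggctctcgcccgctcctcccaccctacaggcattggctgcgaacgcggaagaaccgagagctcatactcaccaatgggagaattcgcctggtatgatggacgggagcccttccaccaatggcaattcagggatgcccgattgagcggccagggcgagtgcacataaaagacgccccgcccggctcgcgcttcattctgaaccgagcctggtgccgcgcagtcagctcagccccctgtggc
Id3 (plus strand, chr4:136143572-136143871): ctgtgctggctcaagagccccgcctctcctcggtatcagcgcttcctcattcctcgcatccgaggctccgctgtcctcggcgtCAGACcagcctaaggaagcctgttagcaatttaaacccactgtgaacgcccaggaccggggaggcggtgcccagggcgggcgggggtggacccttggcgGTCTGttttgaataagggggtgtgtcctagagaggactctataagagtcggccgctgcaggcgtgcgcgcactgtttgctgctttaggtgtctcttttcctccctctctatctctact
Atoh8 (minus strand, chr6:72235528-72235827): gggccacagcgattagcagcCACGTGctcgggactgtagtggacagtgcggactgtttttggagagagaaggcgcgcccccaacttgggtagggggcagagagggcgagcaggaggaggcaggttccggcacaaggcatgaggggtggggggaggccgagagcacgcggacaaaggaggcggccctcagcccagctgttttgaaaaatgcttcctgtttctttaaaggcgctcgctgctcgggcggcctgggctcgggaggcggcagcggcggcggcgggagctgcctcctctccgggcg

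The Id2 window held 1 GGCGCC, the Id3 window held 2 matches to the SMAD box, and the Atoh8 window held 1 CACGTG. Of 32851 windows of the same length, 11.9% held GGCGCC, 49.6% the SMAD box, 7.15% CACGTG and 1.79% TGACGTCA, so that the SMAD box in particular is common. A window was used for 7 of the 10 genes, and those of Id1, Smad7 and Tgfb3 were not used. Among the other members with a window, Id4 held 1 GGCGCC, Grem1 held 1 GGCGCC and 2 SMAD boxes, Tgfb2 held 2 SMAD boxes and 1 CACGTG, Bmp4 held 1 CACGTG, and Smad6 held none of the 4 motifs. These are matches of letters, and binding was not measured.

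Total estimated counts per library lay between 26900240 and 34192685, and 15828 genes were tested. Levels below are given as CPM, counts relative to the library total after TMM scaling, which compare 1 gene between libraries, and as TPM, which also allow for transcript length and compare genes. Library replicates correlated at 0.9888 to 0.9934 (Pearson's r of log2 CPM across genes). Of 10 fibroblast markers 9 passed the filter, all but Lum. Their summed level was 6620 to 8350 TPM in WT cells and 3610 to 4300 TPM in AMPK KO cells with DMSO, 6780 to 8290 and 3360 to 4150 TPM with MK-8722, and 8990 to 10600 and 4890 to 5410 TPM with torin1. These markers were uneven. Vim was the highest in every library, at 1940 to 6780 TPM, while Thy1 reached at most 3.52 and Pdgfra at most 1.78 TPM. Col1a2 ranged from 3.36 to 1030 TPM over the libraries. The summed markers of other cell types reached at most 6.09 TPM for epithelium, 2.33 for endothelium, 6.26 for blood cells (Adgre1 and Hbb-bs at 0 in all libraries) and 3.1 for skeletal muscle. Those of neural cells, of which Tubb3 and Map2 made up most, lay between 66.8 and 131 TPM. In WT, the neural sum was 96.1 to 113 TPM with DMSO and 66.8 to 73.6 TPM with MK-8722, the endothelial sum 0.24 to 0.482 and 1.42 to 2.33 TPM, and the blood cell sum 2.55 to 3.68 and 3.94 to 6.26 TPM, with no overlap in any of them. The fibroblast sum differed between the genotypes and with torin1, the neural, endothelial and blood cell sums moved with MK-8722 in WT, and the part of these in the results below was not tested. In bulk RNA, fewer cells of a kind and less RNA per cell cannot be told apart. Prkaa1 was measured at 80.9 ± 2 CPM in WT and 70.9 ± 2.95 CPM (SD, n = 4 each) in AMPK KO cells with DMSO, and Prkaa2 at 4.74 ± 1.12 and 3.21 ± 0.97 CPM. Transcripts of a deleted gene can persist, so these counts do not check the genotype labels.

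The 10 genes spanned a wide range of abundance, and their order differed between the genotypes. In WT cells with DMSO the mean level was 268 TPM for Id3, 88 for Id1, 47.2 for Id2, 27.7 for Tgfb3, 24.5 for Smad7, 23.4 for Bmp4, 12.1 for Grem1, 10.3 for Smad6, 8.66 for Tgfb2 and 1.84 TPM for Id4. In AMPK KO cells with DMSO it was 121 TPM for Id3, 61.4 for Id1, 57 for Id2, 12.1 for Smad7, 10.5 for Smad6, 7.33 for Grem1, 6.45 for Tgfb2, 5.2 for Tgfb3, 3.32 for Bmp4 and 0.482 TPM for Id4. Neighbours such as Tgfb3, Smad7 and Bmp4 in WT (SD 6.96, 1.84 and 10.2 TPM), or Id1 and Id2 in AMPK KO (SD 3.87 and 5.14 TPM), lay within their spread. Id4 was the least abundant, with 22 to 151 counts per library, and Bmp4 had the fewest counts among the others, with 29 in its lowest library. The whole spans of Bmp4, Id4, Tgfb2 and Tgfb3 overlap annotated genes on the opposite strand (for Tgfb3 the protein-coding Ttll5). Whether their exons overlap was not tested, and the sources used here do not say whether reads were counted by strand. Reads of the partners may therefore be included in these counts. Most of the Bmp4 level came from transcripts holding 45.5%, 31.6% and 22.3% of its TPM, whereas 1 transcript held 93.3% of Id1, 93.6% of Id2 and 86.3% of Id3.

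**Figure D1:**
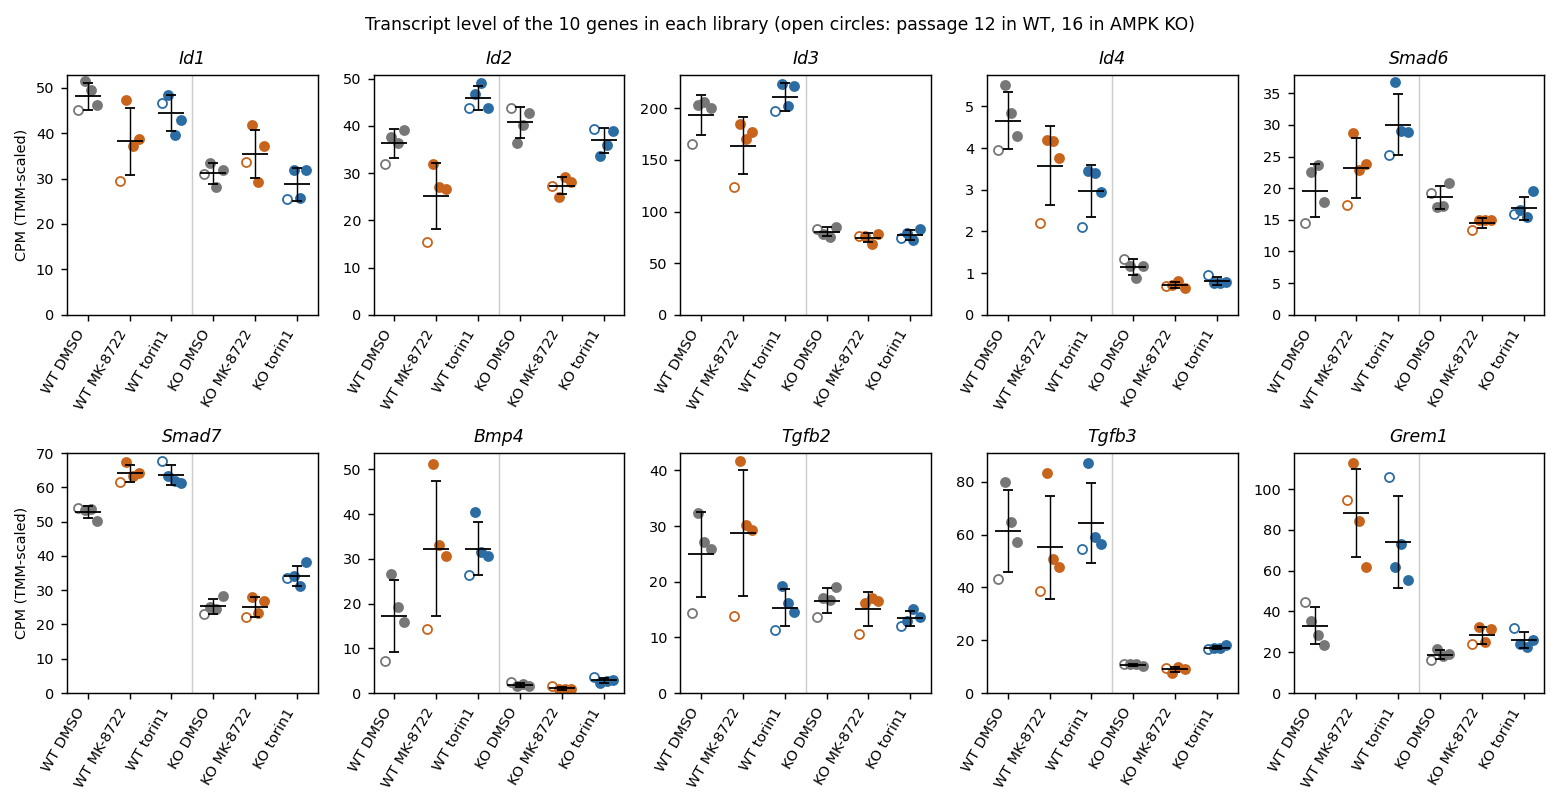
Level of each of the 10 genes in every library, in TMM-scaled CPM on an axis from 0, by group; circles are libraries, drawn from left to right in passage order, bars are the mean ± SD of 4 libraries, and open circles mark passage 12 in WT and 16 in AMPK KO. Bmp4, Tgfb3, Id3, Id4 and Smad7 sit lower in all AMPK KO libraries than in any WT library, while Id2 falls with MK-8722 on both sides of the grey line.

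A gene was called when its adjusted p was under 0.05 and its fold change at least 1.2 in the edgeR quasi-likelihood fit, with p-values adjusted by Benjamini-Hochberg over all 15828 genes. The first question was what activation of AMPK does to these genes in cells that have AMPK. In WT cells MK-8722 changed 5 of the 10 genes. Grem1, Bmp4 and Smad7 rose, and Id1 and Id2 fell. Among all genes tested, 15.7% were called in this comparison, 10.0% as higher and 5.66% as lower. The drug and control libraries did not overlap for Grem1, Id2 and Smad7, 3 of the 10, where 25.5% of all genes did not overlap. In AMPK KO cells the same drug changed 1 of the 10, Id2, which fell. The background there was 1.56% called, 0.866% as higher and 0.695% as lower. Groups did not overlap for Id2, Id4, Smad6, Tgfb3 and Grem1, 5 of the 10, against 11.7% of all genes. With passage as a block, 6 of the 10 members were called in WT and 4 in AMPK KO (2907 and 729 of 15828 genes). With the compared libraries alone, 2 and 3 members were called (2144 of 13779 and 345 of 14731 genes). The contrast between the genotypes in these counts therefore depended on the fit.

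Inhibition of MTOR changed more of the whole transcriptome. In WT cells torin1 changed 7 of the 10 genes, with Grem1, Bmp4, Smad6, Id2 and Smad7 higher and Id4 and Tgfb2 lower. Among all genes, 47.6% were called, 26.6% as higher and 21.1% as lower. Groups did not overlap for 5 members (Id2, Id4, Smad6, Smad7 and Grem1) and for 51.8% of all genes. In AMPK KO cells 2 of the 10 were called, Smad7 and Tgfb3, both higher. There 43.5% of all genes were called, 25.9% as higher and 17.6% as lower. With passage as a block, 6 of the 10 members and 7251 of 15828 genes were called, and with the compared libraries alone 6 of the 10 and 6962 of 15001, so that the standing of the members against all genes depended on the fit. Groups did not overlap for 3 members (Smad7, Tgfb3 and Grem1) and for 53.8% of all genes.

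Between the genotypes, 8 of the 10 genes were lower in AMPK KO than in WT cells with DMSO and none was called higher. Id2 and Smad6 were the 2 not called. Of all genes 56.9% were called, 30.9% as higher and 26.0% as lower. Groups did not overlap for 7 members, the 8 called apart from Tgfb2, and for 64.0% of all genes. The median log2 fold change of the 10 was -0.94, beside 0.02 for all genes tested. Because each genotype had its own passage range, these differences belong to the pair of genotype and passage range.

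**Figure D2:**
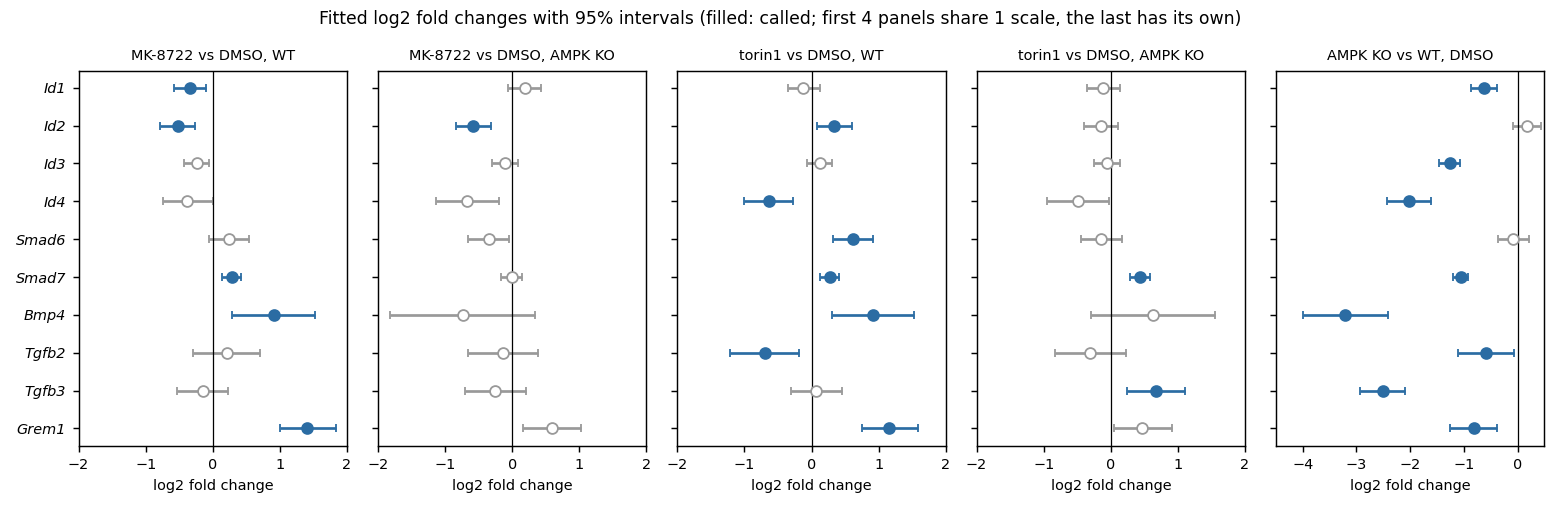
Fitted log2 fold changes of the 10 genes with 95% intervals from edgeR in 5 comparisons; filled points were called, open points were not, and the last panel has its own scale. Grem1 and Bmp4 lie to the right of 0 with both drugs in WT, Id2 lies to the left with MK-8722 in both genotypes, and 8 of 10 points are filled and left of 0 in the comparison of genotypes.

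Among the ID genes, Id2 (ENSMUSG00000020644, chromosome 12, 25093799 to 25097140, GENCODE positions on GRCm38 here and below) was called in both genotypes with MK-8722. ID2 binds E proteins and is the family member known for also binding the retinoblastoma protein. In passage order from 12 to 15, WT libraries with DMSO held 32, 37.6, 36.4 and 39.2 CPM, those with MK-8722 held 15.4, 31.9, 27 and 26.7 CPM, and those with torin1 held 43.8, 46.8, 49.2 and 43.8 CPM. The 3 treatments did not overlap, with MK-8722 lowest and torin1 highest. In AMPK KO libraries, in passage order from 16 to 19, the levels were 43.7, 36.4, 40.3 and 42.8 CPM with DMSO, 27.2, 25, 29.2 and 28.1 CPM with MK-8722, and 39.3, 33.6, 36 and 38.9 CPM with torin1. Here MK-8722 stood below the other treatments in every library, while DMSO and torin1 overlapped.

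The log2 fold change of Id2 with MK-8722 was -0.52 in WT (SE 0.13, adjusted p = 0.00306 by edgeR) and -0.58 in AMPK KO (SE 0.12, adjusted p = 0.0144 by edgeR). Their difference was -0.05, with a 95% interval of -0.43 to 0.32, and was not called (edgeR adjusted p = 0.893). Within passages, MK-8722 was below DMSO in 4 of 4 pairs in WT (log2 ratios -1.05 to -0.24) and in 4 of 4 in AMPK KO (-0.68 to -0.47). The WT call was lost when only the 8 compared libraries were fitted (edgeR adjusted p = 0.0516), and the AMPK KO call when the passage 16 libraries were omitted, a choice made after seeing the data (log2 fold change -0.54, edgeR adjusted p = 0.0973). Torin1 moved Id2 up in WT, by 0.34 (SE 0.12, adjusted p = 0.0204 by edgeR), a call lost without WT DMSO replicate 4 (edgeR adjusted p = 0.0813). In AMPK KO its log2 fold change with torin1 was -0.14 (95% interval -0.40 to 0.11). The difference between genotypes was -0.48 (edgeR adjusted p = 0.0805) and was called with passage as a block (-0.49, edgeR adjusted p = 0.00934). In WT cells Id2 differed more between the drugs than any other member that was higher with torin1, by 0.86 (SE 0.13, adjusted p = 2.77e-06 by edgeR).

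Id1 (ENSMUSG00000042745, chromosome 2, 152736251 to 152737410), a gene widely used as a readout of BMP signalling, fell with MK-8722 in WT. WT libraries held 45.2, 51.6, 49.5 and 46.3 CPM with DMSO, and 29.5, 47.3, 37.1 and 38.8 CPM with MK-8722, in passage order. One MK-8722 library, at passage 13, lay inside the DMSO range and the passage 12 library was far the lowest. The log2 fold change was -0.34 (SE 0.11, adjusted p = 0.0301 by edgeR), and the call was lost in 5 of 8 fits that each left out 1 library. These were WT DMSO replicates 1 and 2 and WT MK-8722 replicates 2, 3 and 4, with edgeR adjusted p-values of 0.0522, 0.0648, 0.125, 0.0555 and 0.07. In AMPK KO cells the levels were 31.1 ± 2.21 CPM with DMSO and 35.4 ± 5.34 CPM with MK-8722 (SD, n = 4 each), with MK-8722 above DMSO at 4 of 4 passages. The difference between the genotypes' responses was 0.52 (SE 0.16, 95% interval 0.18 to 0.86, edgeR adjusted p = 0.0289). The fitted change in AMPK KO itself was 0.19 and was not called. The difference was not called in 4 of 16 fits that left out 1 library, which were WT MK-8722 replicates 2 and 4, AMPK KO DMSO replicate 4 and AMPK KO MK-8722 replicate 3 (edgeR adjusted p = 0.0554, 0.0568, 0.0694 and 0.0823). Without the AMPK KO passage 16 libraries, omitted after seeing the data, it was 0.54 (edgeR adjusted p = 0.0568). Torin1 gave log2 fold changes of -0.12 in WT and -0.11 in AMPK KO, neither called.

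Id3 had the highest level of the family and no called response to either drug when compared with DMSO. ID3 shares its main partners, the E proteins, with ID1 and ID2. Its gene is ENSMUSG00000007872 on chromosome 4, 136143497 to 136145755. With DMSO it was at 193 ± 19.1 CPM in WT cells and 80.5 ± 4.51 CPM in AMPK KO cells (SD, n = 4 each), a ratio of 2.4. All 12 WT libraries, from 124 to 224 CPM, lay above all 12 AMPK KO libraries, from 68.6 to 84.9 CPM. The log2 fold change between genotypes was -1.26 (SE 0.092, adjusted p = 1.38e-11 by edgeR). With MK-8722 in WT it was -0.24, just short of the threshold (SE 0.09, adjusted p = 0.0508 by edgeR), though called without WT DMSO replicate 4 or WT MK-8722 replicates 1 or 3 (edgeR adjusted p = 0.0135, 0.0216 and 0.0448), with MK-8722 below DMSO at 4 of 4 passages (log2 ratios -0.42 to -0.13). In AMPK KO it was -0.10, and torin1 gave 0.13 in WT and -0.06 in AMPK KO, none of them called. Between the drugs in WT, Id3 was higher with torin1 by 0.36 (SE 0.09, adjusted p = 0.00127 by edgeR).

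Id4 (ENSMUSG00000021379, chromosome 13, 48261228 to 48266026), the member known from neural and germline cells, was scarce and changed with torin1 and with genotype. WT libraries with DMSO held 3.96, 5.52, 4.84 and 4.29 CPM in passage order, and those with torin1 2.11, 3.46, 3.4 and 2.94 CPM, with no overlap. Torin1 lowered it by a log2 fold change of -0.64 in WT (SE 0.18, adjusted p = 0.00319 by edgeR). The value in AMPK KO was -0.49 and was not called (edgeR adjusted p = 0.0653, or 0.0223 without AMPK KO DMSO replicate 4), although torin1 was below DMSO at 4 of 4 passages. MK-8722 gave -0.38 in WT (edgeR adjusted p = 0.12) and -0.67 in AMPK KO (edgeR adjusted p = 0.116). With passage as a block, 3 of these responses were called, at -0.40 with MK-8722 in WT (edgeR adjusted p = 0.0121), -0.67 with MK-8722 in AMPK KO (edgeR adjusted p = 0.0132) and -0.48 with torin1 in AMPK KO (edgeR adjusted p = 0.0149). Drug was below DMSO in all 16 pairs of equal passage, as drawn in the plot of ratios within passages. The level in AMPK KO was 0.245 times that in WT with DMSO (log2 fold change -2.03, SE 0.19, adjusted p = 1.88e-09 by edgeR).

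The inhibitory SMADs separated from each other. Smad7 (ENSMUSG00000025880, chromosome 18, 75367529 to 75395935) encodes a protein that blocks both TGF-beta and BMP receptors and recruits ubiquitin ligases to them. In passage order, WT libraries held 54.1, 53.4, 53.7 and 50.1 CPM of Smad7 with DMSO, 61.5, 67.5, 63.3 and 64.2 CPM with MK-8722, and 67.8, 63.4, 62 and 61.2 CPM with torin1. Both drugs were above DMSO in every library and overlapped each other. In AMPK KO, Smad7 was at 25.3 ± 2.08 CPM with DMSO, 25.1 ± 2.83 CPM with MK-8722 and 34.2 ± 2.96 CPM with torin1 (SD, n = 4 each). Torin1 thus stood above DMSO in both genotypes, while MK-8722 overlapped DMSO in AMPK KO.

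The log2 fold change of Smad7 with MK-8722 was 0.28 in WT (SE 0.068, adjusted p = 0.00315 by edgeR) and -0.01 in AMPK KO (95% interval -0.16 to 0.14). The difference, -0.29 (SE 0.099), was called at an edgeR adjusted p of 0.0469, and the call was lost in 12 of 16 fits without 1 library, with an adjusted p of up to 0.122, which was reached without AMPK KO MK-8722 replicate 2. It was kept only without WT MK-8722 replicate 2, AMPK KO DMSO replicate 3 or AMPK KO MK-8722 replicates 1 or 3. With torin1 the log2 fold change was 0.27 in WT (SE 0.068, adjusted p = 0.00149 by edgeR) and 0.44 in AMPK KO (SE 0.071, adjusted p = 1.22e-05 by edgeR), and the difference between genotypes was not called (0.17, 95% interval -0.03 to 0.38). Both WT changes were close to the fold of 1.2 that a call needed. The MK-8722 call was lost in 2 of 8 fits without 1 library, at log2 fold changes of 0.24 without WT DMSO replicate 3 and 0.26 without WT MK-8722 replicate 1. The torin1 call was lost in 4 of 8, at 0.26 and 0.23 without WT DMSO replicates 2 and 3 and 0.26 and 0.23 without WT torin1 replicates 2 and 4. Smad7 was lower in AMPK KO with DMSO by a log2 fold change of -1.06 (SE 0.07, adjusted p = 2.41e-12 by edgeR), and the shares of its transcripts were led by 1 transcript with 65.8%.

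Smad6 (ENSMUSG00000036867, chromosome 9, 63953076 to 64022059), whose product acts mainly on the BMP branch, responded to torin1 in 1 genotype. WT libraries held 14.5, 22.6, 23.6 and 17.8 CPM with DMSO, 17.3, 28.7, 22.9 and 23.9 CPM with MK-8722, and 25.3, 36.8, 29.1 and 28.9 CPM with torin1, in passage order. Every torin1 library was above every DMSO library, while MK-8722 overlapped both. In AMPK KO both drug means lay below that of DMSO, with 19.3, 17, 17.2 and 20.8 CPM for DMSO, 13.4, 15, 14.9 and 14.9 CPM for MK-8722, and 15.9, 16.5, 15.5 and 19.5 CPM for torin1. MK-8722 lay below DMSO in every AMPK KO library. With torin1 the log2 fold change was 0.62 in WT (SE 0.14, adjusted p = 0.000515 by edgeR) and -0.14 in AMPK KO (95% interval -0.44 to 0.16). The difference of -0.76 was called (SE 0.2, 95% interval -1.18 to -0.34, edgeR adjusted p = 0.0174), also in all 16 fits without 1 library, and was the only called torin1 interaction of the 10 genes, against 7.07% of all genes (4.15% higher and 2.92% lower). With MK-8722 the log2 fold changes were 0.24 in WT and -0.35 in AMPK KO, neither called (edgeR adjusted p = 0.218 and 0.203). The second was called with passage as a block (edgeR adjusted p = 0.0048) and when only the compared libraries were fitted (-0.36, edgeR adjusted p = 0.0283). Their difference was -0.60 (SE 0.2, adjusted p = 0.0439 by edgeR), and 12 of 16 fits without 1 library lost that call, up to an adjusted p of 0.104 without WT MK-8722 replicate 1. It was kept without WT DMSO replicates 1 or 2, WT MK-8722 replicate 2 or AMPK KO DMSO replicate 2. With DMSO, Smad6 was at 19.6 ± 4.23 CPM in WT cells and 18.6 ± 1.82 CPM in AMPK KO cells (SD, n = 4 each).

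Under the settings reported here, the responses of 3 members to MK-8722 were called as different between the genotypes, Id1, Smad6 and Smad7, and this set depended on the fit. With passage as a block, under DESeq2's Wald test, with at least 10 counts in every library, and without the WT passage 12 libraries (omitted after seeing the data), 5 members were called, these 3 with Bmp4 and Grem1, whose differences of -1.65 and -0.82 were the largest of the 10 in size. Among all genes 12.8% were called for this interaction in the main fit, 5.12% as higher and 7.66% as lower in AMPK KO relative to WT. Under the 4 other settings just named, in that order, 2785 of 15828, 2126 of 15828, 2038 of 12371 and 2248 of 16005 genes were called. Without the AMPK KO passage 16 libraries, omitted after seeing the data, 0 of the 10 were called by edgeR and 5 had an unadjusted p under 0.05. Leaving out 1 library gave 0, again with 5 at an unadjusted p under 0.05, without WT MK-8722 replicate 4 or AMPK KO DMSO replicate 4, and 1 without WT DMSO replicate 3, WT MK-8722 replicate 1, AMPK KO DMSO replicate 1 or AMPK KO MK-8722 replicate 4.

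Bmp4 (ENSMUSG00000021835, chromosome 14, 46383520 to 46390669), a ligand of the BMP branch that induces Id genes in many cell types, had the widest range of the 10 as a ratio of highest to lowest library. In passage order from 12 to 15, WT libraries held 7.16, 26.7, 19.3 and 15.9 CPM with DMSO, 14.4, 51.2, 33 and 30.6 CPM with MK-8722, and 26.5, 40.5, 31.5 and 30.7 CPM with torin1. The groups overlapped because passage 12 was lowest and passage 13 highest in each of them. At equal passage, however, MK-8722 was above DMSO in 4 of 4 pairs, with log2 ratios of 0.77 to 1.0, and torin1 in 4 of 4, with 0.60 to 1.88. The fitted log2 fold changes were 0.91 with MK-8722 (SE 0.29, adjusted p = 0.0221 by edgeR) and 0.91 with torin1 (SE 0.29, adjusted p = 0.00948 by edgeR). The MK-8722 call was lost in 3 of 8 fits without 1 library, at edgeR adjusted p-values of 0.0574 and 0.0723 without WT DMSO replicates 3 and 4 and 0.135 without WT MK-8722 replicate 1. It was also lost with a transcript length offset (0.82, edgeR adjusted p = 0.0794) and with the compared libraries alone (edgeR adjusted p = 0.13).

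In AMPK KO libraries Bmp4 was between 0.889 and 3.56 CPM. In passage order from 16 to 19, DMSO gave 2.5, 1.46, 1.92 and 1.5 CPM, MK-8722 gave 1.62, 0.969, 0.934 and 0.889 CPM, and torin1 gave 3.56, 2.16, 2.76 and 2.99 CPM. MK-8722 was below DMSO in 4 of 4 pairs of equal passage (log2 ratios -0.99 to -0.56) and torin1 above it in 4 of 4 (0.50 to 0.96). Neither was called, at log2 fold changes of -0.74 (SE 0.52, adjusted p = 0.52 by edgeR) and 0.63 (SE 0.44, adjusted p = 0.23 by edgeR). With passage as a block the torin1 value was called (0.64, edgeR adjusted p = 0.036). The difference between the genotypes' responses to MK-8722 was -1.65 (SE 0.59, adjusted p = 0.0577 by edgeR), and reached the threshold with passage as a block (-1.65, edgeR adjusted p = 0.00115) and under DESeq2's Wald test (-1.64, adjusted p = 0.0119), and also without WT DMSO replicate 2, WT MK-8722 replicate 2 or AMPK KO MK-8722 replicate 2 (edgeR adjusted p = 0.0226, 0.0112 and 0.0494). The ratio of mean CPM in WT over AMPK KO was 9.35 with DMSO, 29.2 with MK-8722 and 11.3 with torin1. With DMSO the log2 fold change was -3.21 (SE 0.38, 95% interval -4.00 to -2.42, edgeR adjusted p = 5.42e-08).

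**Figure D3:**
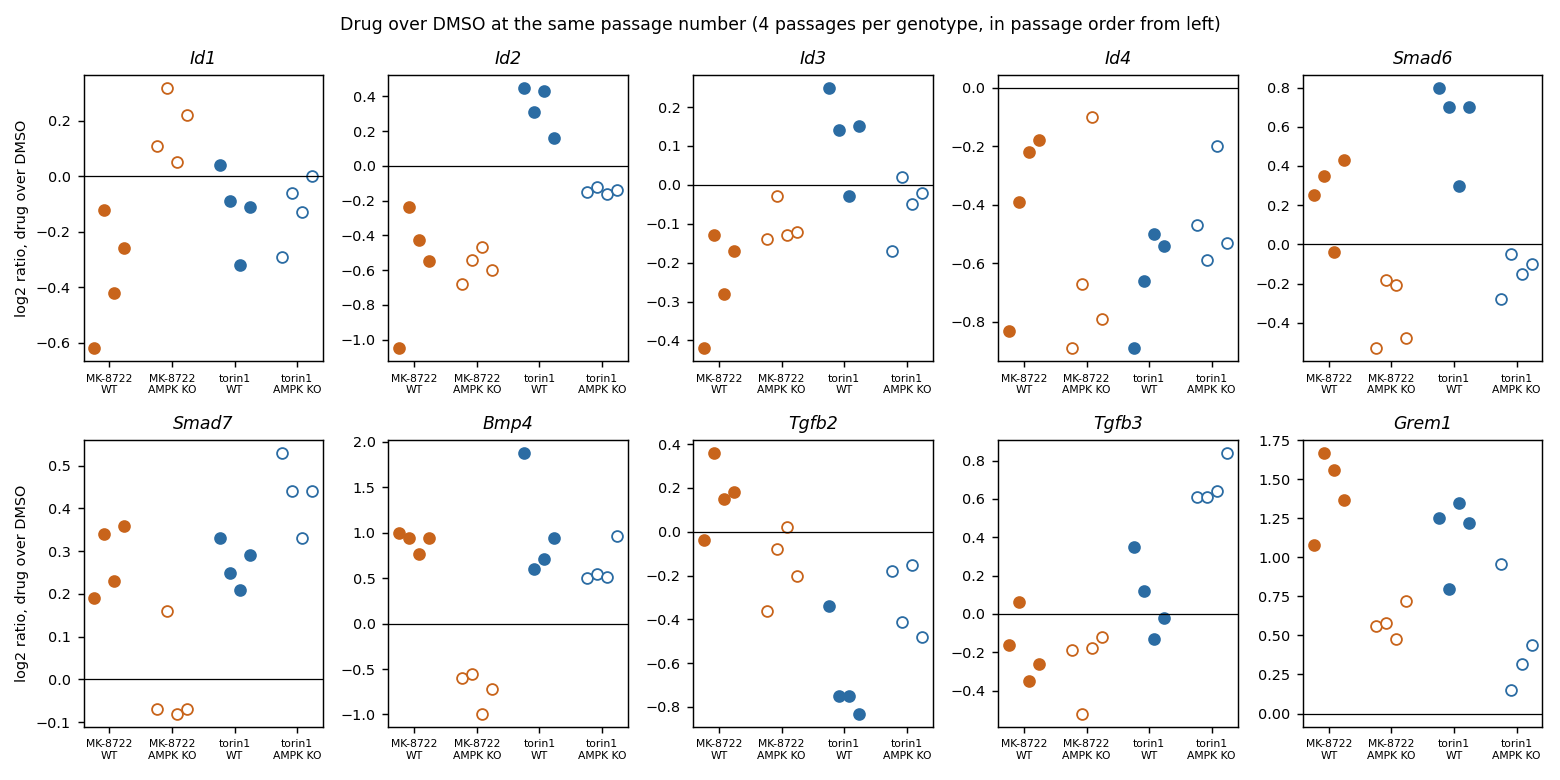
Log2 ratio of drug over DMSO between libraries of the same passage number, for each gene, drug and genotype; each circle is 1 pair of libraries (4 passages, in order from the left), filled for WT and open for AMPK KO, and the line marks no difference. Bmp4 with MK-8722 lies above the line in 4 of 4 WT pairs and below it in 4 of 4 AMPK KO pairs, and Id4 lies below it in every pair.

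Tgfb2 and Tgfb3 encode ligands that signal through the TGF-beta receptors, TGF-beta 2 with the help of the coreceptor betaglycan. For Tgfb2 (ENSMUSG00000039239, chromosome 1, 186622792 to 186705989), WT libraries in passage order held 14.3, 32.4, 27.2 and 25.8 CPM with DMSO, 13.9, 41.6, 30.2 and 29.3 CPM with MK-8722, and 11.3, 19.3, 16.2 and 14.5 CPM with torin1. Torin1 was below DMSO at 4 of 4 passages, though the groups overlapped through the low passage 12 control. Torin1 lowered Tgfb2 in WT by a log2 fold change of -0.70 (SE 0.25, adjusted p = 0.0167 by edgeR), a call lost without WT DMSO replicate 2 (edgeR adjusted p = 0.0676) and without WT torin1 replicate 4 (edgeR adjusted p = 0.0578). In AMPK KO the value was -0.31 and not called. It was called with passage as a block (-0.30, edgeR adjusted p = 0.00903) and with the compared libraries alone (-0.35, edgeR adjusted p = 0.00847). Compared with MK-8722 in WT, torin1 gave -0.91 (SE 0.24, adjusted p = 0.00271 by edgeR). Tgfb2 was at 24.9 ± 7.65 CPM in WT cells and 16.6 ± 2.26 CPM in AMPK KO cells with DMSO (SD, n = 4 each). This difference of -0.58 was the least firm of the 8 between genotypes (SE 0.24, adjusted p = 0.0367 by edgeR), since scaling by library size alone gave -0.45 (edgeR adjusted p = 0.1) and 5 of 8 fits without 1 library lost the call. The libraries were WT DMSO replicates 1 and 2 and AMPK KO DMSO replicates 2, 3 and 4 (edgeR adjusted p = 0.0593, 0.106, 0.0515, 0.099 and 0.0611).

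Tgfb3 (ENSMUSG00000021253, chromosome 12, 86056745 to 86079041) was lower in every AMPK KO library than in any WT library. With DMSO it was at 61.3 ± 15.4 CPM in WT cells and 10.7 ± 0.427 CPM in AMPK KO cells (SD, n = 4 each), with a fitted log2 difference of -2.51 (SE 0.2, adjusted p = 8.09e-11 by edgeR). In AMPK KO, in passage order, DMSO libraries held 10.9, 11, 10.9 and 10.1 CPM, MK-8722 libraries 9.54, 7.65, 9.69 and 9.27 CPM, and torin1 libraries 16.6, 16.9, 17 and 18.1 CPM. The 3 treatments did not overlap, with torin1 highest and MK-8722 lowest. Torin1 raised it in AMPK KO by a log2 fold change of 0.68 (SE 0.21, adjusted p = 0.00749 by edgeR), which all 8 fits without 1 library kept as a call. In WT, with libraries of 38.6 to 87 CPM over the 3 treatments, torin1 gave 0.07 (95% interval -0.30 to 0.45). The difference between genotypes was 0.60 and not called (95% interval 0.03 to 1.18, edgeR adjusted p = 0.175), although it was with passage as a block (0.60, edgeR adjusted p = 0.000742). MK-8722 gave -0.15 in WT and -0.25 in AMPK KO, neither called.

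Grem1 (ENSMUSG00000074934, chromosome 2, 113746164 to 113758646) had the largest rise of the 10 genes with either drug in WT by log2 fold change. In passage order, WT libraries held 44.6, 35.4, 28.5 and 23.8 CPM with DMSO, 94.6, 113, 84.2 and 61.7 CPM with MK-8722, and 106, 61.8, 73.1 and 55.6 CPM with torin1. Every library of either drug lay above every control, and the drugs overlapped. The log2 fold change was 1.41 with MK-8722 (SE 0.2, adjusted p = 7.97e-06 by edgeR) and 1.16 with torin1 (SE 0.2, adjusted p = 1.85e-05 by edgeR), and all 8 fits without 1 library kept each call. Between the drugs the log2 difference was -0.25 (95% interval -0.65 to 0.15), and it was called only when the WT passage 12 libraries were omitted, which was chosen after seeing the data (-0.43, edgeR adjusted p = 0.0361), or without WT torin1 replicate 4 (-0.47, edgeR adjusted p = 0.031).

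In AMPK KO, Grem1 was also above DMSO in every drug-treated library, at 16.3, 21.7, 18.1 and 19.1 CPM with DMSO, 24, 32.4, 25.1 and 31.6 CPM with MK-8722, and 31.7, 24, 22.6 and 25.9 CPM with torin1. Neither response was called, at 0.59 (SE 0.21, adjusted p = 0.13 by edgeR) and 0.47 (SE 0.21, adjusted p = 0.055 by edgeR), and both were called with passage as a block (edgeR adjusted p = 0.00851 and 0.00577). The difference between genotypes was -0.82 for MK-8722 (SE 0.28, 95% interval -1.42 to -0.22, edgeR adjusted p = 0.05, just missing the threshold, or 0.0175, 0.0215 and 0.0497 without WT DMSO replicate 4, WT MK-8722 replicate 3 or AMPK KO MK-8722 replicate 3) and -0.69 for torin1 (edgeR adjusted p = 0.133). With passage as a block these were -0.84 (edgeR adjusted p = 0.00218) and -0.69 (edgeR adjusted p = 0.0134). With DMSO, Grem1 was 0.566 times as high in AMPK KO as in WT (log2 fold change -0.82, SE 0.21, adjusted p = 0.00116 by edgeR). The WT over AMPK KO ratio of mean CPM was 1.76 with DMSO, 3.12 with MK-8722 and 2.84 with torin1.

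Compared directly in WT, torin1 and MK-8722 differed for 4 of the 10 genes, with Id2, Id3 and Smad6 higher and Tgfb2 lower with torin1. Of all genes 45.7% were called in that comparison, 24.5% as higher and 21.2% as lower. Groups did not overlap for Id2 and Id3, 2 of the 10, and for 48.9% of all genes. The call for Smad6, 0.37 (SE 0.14, adjusted p = 0.0242 by edgeR), was lost without WT MK-8722 replicate 2 (edgeR adjusted p = 0.0857) and without WT torin1 replicate 2 (edgeR adjusted p = 0.138). Without 1 library, 4 other members were called in 1 or 2 of 8 fits. These were Id1 (WT MK-8722 replicate 1, WT torin1 replicate 3), Id4 (WT MK-8722 replicate 2), Tgfb3 (WT MK-8722 replicate 1) and Grem1 (WT torin1 replicate 4). For Bmp4 and Smad7 the differences between the drugs were 0.00 (95% interval -0.59 to 0.60) and -0.01 (95% interval -0.15 to 0.13). These comparisons share the drug libraries with those against DMSO, and their values are not independent of them.

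Levels of several members differed between passages within WT, without rising or falling steadily with passage number. The passage 12 library was the lowest in all 3 WT groups for Id3, Id4, Smad6, Bmp4, Tgfb2 and Tgfb3, in 2 of 3 for Id1 and Id2, in 1 for Smad7 and in none for Grem1. The next passage, 13, was the highest in all 3 WT groups for Id1, Id4, Bmp4, Tgfb2 and Tgfb3. In AMPK KO the passage 16 library was lowest in all 3 groups for Tgfb2 alone. Without the WT passage 12 libraries, omitted after seeing the data, the response of Bmp4 to MK-8722 differed between the genotypes by -1.62 (edgeR adjusted p = 0.00375) and that of Grem1 by -0.96 (edgeR adjusted p = 0.00804), and Id1 no longer passed in WT with MK-8722 (-0.27, edgeR adjusted p = 0.0911).

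The other genes of the pathway were read from lists of 81 genes, chosen with earlier results of these data known, of which 72 were tested. In WT, MK-8722 changed 18 of the 72, 12 higher and 6 lower (15.7% of all genes, 10.0% higher and 5.66% lower), with a median log2 fold change of 0.02 beside -0.00 for all genes. Lrrc32, which encodes the anchor of latent TGF-beta on the cell surface, rose by 1.45 (SE 0.16, adjusted p = 3.94e-07 by edgeR). Among called genes of at least 5 CPM the largest falls were those of Atoh8, by a log2 fold change of -0.77 (SE 0.14, adjusted p = 0.000281 by edgeR), and of Smad3, which carries the TGF-beta signal, by -0.56 (SE 0.097, adjusted p = 0.000114 by edgeR). By role, 3 of 7 other ligands were called (Inhba higher, Bmp2 and Inhbb lower), 3 of 14 receptors (all higher), 2 of 6 signal-carrying SMADs, 2 of 13 extracellular antagonists and latency proteins, 2 of 11 intracellular brakes, 4 of 12 further targets and 2 of 9 bHLH and ETS partners of ID proteins. In AMPK KO, where 1.56% of all genes were called, MK-8722 changed 1 of the 72, Atoh8, by -0.79 (SE 0.15, adjusted p = 0.00723 by edgeR).

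Torin1 changed 38 of the 72 in WT (18 higher, 20 lower) and 28 in AMPK KO (16 higher, 12 lower). Of all genes 47.6% were called in WT, 26.6% higher and 21.1% lower, and 43.5% in AMPK KO, 25.9% higher and 17.6% lower, and the counts by role that follow stand beside those shares. Their median log2 fold changes were -0.08 and 0.03, beside 0.04 and 0.06 for all genes. Lrrc32 rose most among the named genes in both, by 2.08 (SE 0.16, adjusted p = 1.15e-10 by edgeR) and 1.21 (SE 0.19, adjusted p = 8.02e-06 by edgeR). Gdf11, a ligand related to myostatin, fell in both, by log2 fold changes of -1.83 (SE 0.11) and -1.33 (SE 0.1). Col1a1, the main fibrillar collagen of fibroblasts, also fell in both, by -1.05 (SE 0.25) and -1.22 (SE 0.26). Of the 14 receptors, 6 were higher in WT and the same number in AMPK KO, and in both these were Acvrl1, Acvr1b, Tgfbr1, Acvr2b, Tgfbr3 and Eng. Acvr2a was lower in WT. Among the partners of ID proteins, 6 of 9 were lower in WT (Tcf3, Tcf12, Twist1, Twist2, Ets1 and Ets2) and 4 of 9 in AMPK KO (Tcf3, Twist2, Ets1 and Ets2). Msc was higher in both. Of the antagonists and latency proteins in AMPK KO, 6 of 13 were higher, among them Ltbp1, Ltbp2, Ltbp3 and Ltbp4, of the family named latent TGF-beta binding proteins. Nog was lower there. In WT, 4 of these 13 were higher and 3 lower. Tgfbi, a matrix protein gene induced by TGF-beta, rose in WT by 1.31 (SE 0.28, adjusted p = 0.000332 by edgeR).

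Between the genotypes 58 of the 72 were called with DMSO, 12 higher and 46 lower in AMPK KO, where 56.9% of all genes were called, 30.9% higher and 26.0% lower. The median of the 72 was -0.53 beside 0.02 for all genes. Tagln, a marker of contractile fibroblasts and smooth muscle, was at 853 ± 98.7 CPM in WT cells and 19.3 ± 3.31 CPM in AMPK KO cells (SD, n = 4 each), with a fitted log2 difference of -5.46 (SE 0.17, adjusted p = 2.15e-18 by edgeR). Inhba, which encodes the subunit of activin A, was lower by -3.53 (SE 0.12, adjusted p = 7.25e-18 by edgeR). In the other direction, Tgfb1 was at 58.9 ± 5.12 CPM in WT cells and 136 ± 7.87 CPM in AMPK KO cells (SD, n = 4 each), with a fitted log2 difference of 1.21 (SE 0.064, adjusted p = 3.7e-14 by edgeR). The 3 TGF-beta ligands therefore went different ways, with Tgfb1 higher and Tgfb2 and Tgfb3 lower. Msx2, a homeobox target of BMP, was higher by 1.64 (SE 0.09), unlike Id1, Id3 and Id4. Of the further targets 10 of 12 were lower, and of the antagonists and latency proteins 9 of 13, with Fst and Ltbp3 higher.

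The responses of 10 of the 72 listed genes to MK-8722 differed between genotypes, 9 of them lower in AMPK KO. Of all genes 12.8% were called for this interaction, 5.12% as higher and 7.66% as lower. Among the 9 were Tgfbr3, which encodes betaglycan (-1.07, SE 0.19, adjusted p = 0.000431 by edgeR), and Lrrc32 (-1.0, SE 0.26, adjusted p = 0.0099 by edgeR). Smad3 went the other way (0.49, SE 0.14, adjusted p = 0.0159 by edgeR). For torin1, 7.07% of all genes were called, 4.15% as higher and 2.92% as lower. Of the 72, 11 differed, 8 higher and 3 lower. Atoh8 was among the latter, at -0.91 (SE 0.2, adjusted p = 0.0051 by edgeR), together with Lrrc32 (-0.87, SE 0.25, adjusted p = 0.0294 by edgeR), and Gdf11 (0.50, SE 0.15) and Tob1 (0.44, SE 0.11) among the former. Between the drugs in WT, 45.7% of all genes were called, 24.5% as higher and 21.2% as lower. Of the 72, 36 differed, 14 higher and 22 lower with torin1. Tgfbi (2.01, SE 0.3) and Atoh8 (1.82, SE 0.14) were among the former, and Gdf11 (-1.73, SE 0.11) was among the latter.

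For each member, the 2 genes with the most similar course over the 24 libraries were sought among all tested genes of at least 5 CPM, by Pearson's r of log2 CPM centred within each genotype. For Id2 the closest was Atoh8 (r = 0.907), followed by Ip6k2 (0.894). Within WT alone the r of Id2 and Atoh8 was 0.934, and within AMPK KO 0.824, over 12 libraries each. These libraries share treatments and passages, so that r describes a common course and is not a test. In WT, Atoh8 was at 21 ± 4.19 CPM with DMSO, 12.4 ± 3.5 with MK-8722 and 43.7 ± 2.84 with torin1, and in AMPK KO at 12.1 ± 0.848, 7.01 ± 0.324 and 13.4 ± 1.1 CPM (SD, n = 4 each). Like Id2, it was lowest with MK-8722 in both genotypes. The 2 promoter windows printed above share none of the 4 motifs.

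**Figure D4:**
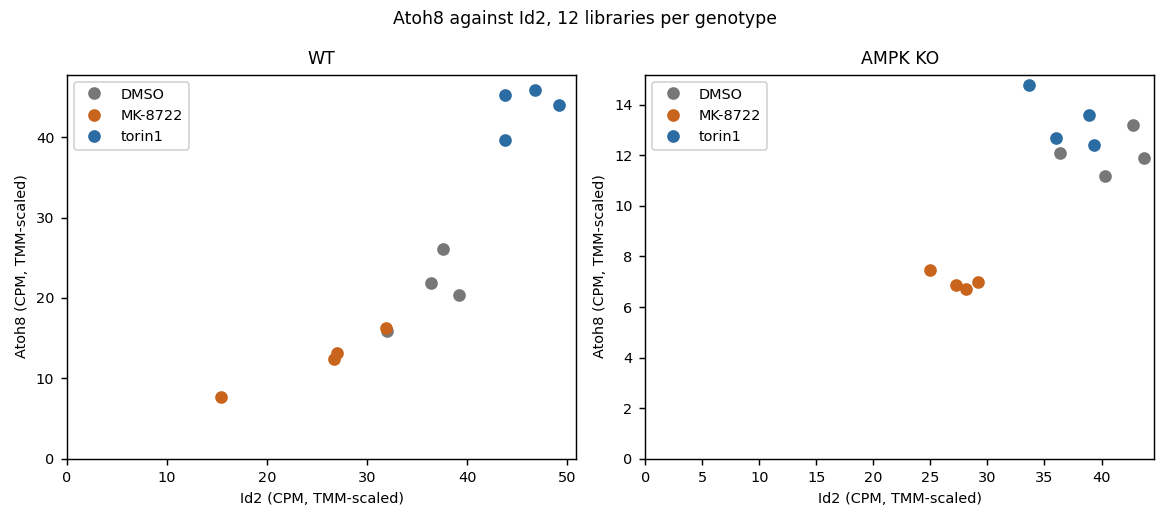
Atoh8 against Id2, both in TMM-scaled CPM on axes from 0, for the 12 WT libraries (left) and the 12 AMPK KO libraries (right, with its own scales), coloured by treatment. MK-8722 libraries lie lowest for Id2 in both panels, and torin1 libraries stand apart from DMSO in WT and beside them in AMPK KO.

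For the other members the closest genes were Prrc2c (0.838) and Ier5l (0.802) for Id1, Tubb2a (0.886) and Gse1 (0.871) for Id3, and Utp14b (0.81) and Pwwp3b (0.804) for Id4. For the inhibitory SMADs they were Adamtsl4 (0.817) and Cdon (0.813) for Smad6, and Nav2 (0.948) and Igf1r (0.928) for Smad7. For the ligands they were Smpd3 (0.917) and Lmo7 (0.894) for Bmp4, Cadm1 (0.928) and Slco3a1 (0.911) for Tgfb2, and Magi1 (0.888) and Rcbtb2 (0.877) for Tgfb3. Grem1 was closest to F3 (0.883), which encodes tissue factor, and Cers6 (0.881). No member had another member as its closest gene. Over the same 24 libraries the r of Id2 with Id3 was 0.834, and that of Id2 with Id1 was 0.272, being 0.743 within WT and -0.604 within AMPK KO.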

How the data were processed

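Poly(A) RNA of 24 MEF libraries (Universal Plus mRNA-seq, paired-end reads) was analysed from the tables that the authors deposited. According to the methods of the study, reads were aligned by STAR to the mouse genome GRCm38 within nf-core/rnaseq, with options for molecular identifiers, and the submitters' processing notes also name Salmon. The gene table that the authors deposited holds estimated counts, which are not normalized and of which 85.3% are whole numbers, and the transcript tables they deposited hold estimated counts, lengths and TPM. Gene counts equalled the summed transcript counts (largest difference 1.2e-10). Gene TPM here are sums over the deposited transcript TPM. Whether strand was used in counting is not given in the sources used here. Copies that molecular identifiers did not remove would make counts overstate molecules, which was not tested.

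The 10 genes, the pathway lists and the tests were chosen with earlier results of these data known. Estimated counts were rounded, filtered with filterByExpr (15828 of 55487 genes, with 99.96% of counts) and scaled by TMM. edgeR 4.0.16 (R 4.3.3) fitted its quasi-likelihood model to the 24 libraries together, with a mean for each of the 6 groups. All tests were two-sided, Benjamini-Hochberg adjustment covered all genes tested, and 95% intervals used the standard error, taken as the log2 fold change over the square root of F. The 8 comparisons were each drug against DMSO in each genotype, AMPK KO against WT with DMSO, the drugs against each other in WT (torin1 over MK-8722), and for each drug its interaction with genotype, coded as the response in AMPK KO minus that in WT. Thresholds and tool follow the study, which also mentions a batch removal. All libraries carry the same batch label, and none was removed here. Chi-square per degree of freedom of the 36 replicate pairs was 3.37 to 24.9, so that no pair agreed within sampling noise. The procedure was tested on simulated counts.

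Named were the 10 members, the targeted genes, the 2 called pathway genes that rose most and the 2 that fell most in each comparison, at a mean of at least 5 CPM, and the 2 genes most like each member. One gene that this rule names is not reported here. Other pathway genes named in the text were chosen after their values were seen, for their role or as members of a small count. Deviations of libraries from their group means correlated at -0.196 to 0.25 for equal replicate numbers (4 of 24 pairs over 0.1) and -0.0114 to 0.367 for equal passage (12 of 20 pairs over 0.1), so that replicate numbers do not pair the libraries. Passage numbers pair them in part. The main fit held no term for passage, and its p-values leave that pairing out. Alternatives were DESeq2 size factors, library size alone, no filter, at least 10 counts in every library, replicate or passage as a block, compared libraries alone, a transcript length offset, DESeq2 1.42.0, adjusted p alone, a fold of at least 1.5, and leaving out each library. Omitting the WT passage 12 or the AMPK KO passage 16 libraries was added after seeing the data.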

Additional observations from a re-analysis of the deposited data

Results flagged for a closer look

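Of the 60 sets of 4 libraries (10 genes in 6 groups), 6 held a library whose distance from the nearest other library was large against the range of its group (Dixon's ratio above the 95% critical value). Chance alone gives such a library in about 1 in 20 groups. In WT, Id3 in DMSO replicate 4, the passage 12 library, was at 165 CPM against 200 to 206 CPM in the others (ratio 0.854), and Tgfb3 in torin1 replicate 2, of passage 13, at 87 against 54.7 to 59.1 CPM (0.864). In AMPK KO, 3 of the 6 were MK-8722 replicate 2, the passage 16 library, with Smad6 at 13.4 against 14.9 to 15 CPM (0.938), Bmp4 at 1.62 against 0.889 to 0.969 CPM (0.891) and Tgfb2 at 10.6 against 16.2 to 17 CPM (0.875). Tgfb3 in DMSO replicate 1, of passage 19, was at 10.1 against 10.9 to 11 CPM (0.889).

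The response to MK-8722 differed between the genotypes for Id1 (0.52), Smad6 (-0.60) and Smad7 (-0.29), and the response to torin1 for Smad6 (-0.76), each as the log2 response in AMPK KO minus that in WT in edgeR. The values and the libraries on which these calls rest stand in the results above.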

How the results depend on the processing

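Of 710 values of the 10 genes under the other settings, 655 kept their side of the threshold, 17 lost a call and 38 gained one. Of 800 with 1 library left out, 733 kept it, 52 lost a call and 15 gained one, and of 110 without a passage, 99, 7 and 4. No called value changed direction in any of them. Replicate number as a block left the count of members called in 7 of the 8 comparisons as it was and gave 4 in place of 3 for the MK-8722 interaction (Grem1, -0.82, edgeR adjusted p = 0.0475). The labels tie the numbers to no shared source. With passage as a block, the members called were 4 (MK-8722 in AMPK KO), 6 (torin1 in AMPK KO), 5 (MK-8722 interaction) and 4 (torin1 interaction), and the pathway genes called 6 (MK-8722 in AMPK KO) and 17 (torin1 interaction). Calls over all 15828 genes rose as well in these 4 comparisons, from 247, 6879, 2023 and 1119 to 729, 7251, 2785 and 1861. Fits of the compared libraries alone gave members called of 2 (MK-8722 in WT), 3 (MK-8722 in AMPK KO), 6 (torin1 in AMPK KO) and 2 (torin1 interaction), and 7 pathway genes for the latter. Of all genes these fits called 2144 of 13779, 345 of 14731, 6962 of 15001 and 1139 of 15605. A fold of at least 1.5 gave 2, 0, 1 and 2 members for MK-8722 in WT and AMPK KO, torin1 in AMPK KO and torin1 against MK-8722, 1 for the MK-8722 interaction, and 9, 20, 13, 21 and 4 pathway genes for MK-8722 in WT, torin1 in WT and AMPK KO, torin1 against MK-8722 and the torin1 interaction, since fewer genes can pass a higher fold. Over all 15828 genes it called 833, 64, 3146 and 3551 in the first 4 of these comparisons. It called 681 for the MK-8722 interaction, 3855 for torin1 in WT and 305 for the torin1 interaction. At least 10 counts in every library gave 5 members for the MK-8722 interaction, 2 for the torin1 interaction and 2 pathway genes for MK-8722 in AMPK KO. DESeq2's Wald test gave 5, 2 and 2 for the same, adjusted p alone 2 for the last, and no filter 2 for the members in the torin1 interaction. In the same order, all-gene calls were 2038, 1077 and 257 of 12371 with at least 10 counts and 2126, 1195 and 363 of 15828 by DESeq2. Adjusted p alone called 423 of 15828 genes and no filter 959 of 31103. Without the WT passage 12 libraries, 5 members were called for the MK-8722 and 2 for the torin1 interaction, beside 2248 and 1345 of 16005 genes. Without those of AMPK KO passage 16, edgeR called 0 members and 0 pathway genes for MK-8722 in AMPK KO, 0 members for the MK-8722 interaction and 5 pathway genes for the torin1 interaction, while 2 members, 8 pathway genes and 5 members had an unadjusted p under 0.05 where none was called. Of the members, 4 had one for MK-8722 in AMPK KO at the fold of at least 1.5. Without AMPK KO passage 16, all-gene calls were 116 of 15905 for MK-8722 in AMPK KO. They were 1764 for the MK-8722 and 911 for the torin1 interaction. The cause of the other changes was not tested.

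Leaving out each library gave members called of 3 to 5, 1 to 1, 5 to 7, 2 to 3, 7 to 8, 3 to 6, 0 to 3 and 1 to 1 in the order of the 8 comparisons, and pathway genes of 14 to 20, 1 to 2, 34 to 38, 24 to 29, 54 to 59, 31 to 37, 8 to 12 and 5 to 13. Those that moved a count of the pathway by over 1.5 times were WT DMSO replicates 1 and 3, WT torin1 replicates 1 and 3, AMPK KO DMSO replicate 4 and AMPK KO torin1 replicate 2 for the torin1 interaction (7, 6, 5, 7, 6 and 6), and AMPK KO DMSO replicates 2 and 3 and AMPK KO MK-8722 replicate 2 for MK-8722 in AMPK KO (2 each). Without WT DMSO replicate 3, MK-8722 in WT gave 3 members. Scaling by library size alone shifted the median of all genes on the log2 scale to 0.14 (torin1 in WT), 0.12 (torin1 in AMPK KO), 0.15 (genotypes) and 0.12 (torin1 against MK-8722), and the share of calls that were higher from 55.8%, 59.5%, 54.3% and 53.5% to 67.5%, 68%, 67.4% and 65.3%. It also moved that share from 55.5% to 45.1% for MK-8722 in AMPK KO and from 58.7% to 42.1% for the torin1 interaction, where DESeq2 size factors gave 48.5%. Id2 was then called higher in AMPK KO (0.31, edgeR adjusted p = 0.0307). Depth limits Id4 and Bmp4 in AMPK KO, with as few as 22 and 29 counts in a library. With 4 libraries a group, changes within the spread of the libraries were not detectable, and passage and genotype cannot be told apart.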
